A study of Mus musculus with 12 samples.

Results

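The genes described here are 35 genes of the unfolded protein response and the integrated stress response, picked by name and found by matching gene symbols to the Ensembl gene IDs of the count tables. All 35 are protein-coding genes of the mouse and all had a row in every library, among 49585 gene IDs in the liver tables and 55401 in the macrophage tables. They fall into 15 chaperones and folding factors of the endoplasmic reticulum (ER), 4 genes of the sensors and their transcription factor Xbp1, 7 genes of ER-associated degradation and 9 genes of the ATF4 arm. The choice used no measured value of the comparisons, but it was made with earlier results of these data known.

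The ER folds secreted and membrane proteins, and unfolded protein in its lumen is sensed by IRE1 (encoded by Ern1), PERK (Eif2ak3) and ATF6. IRE1 splices Xbp1 mRNA into the form that codes for an active transcription factor, ATF6 is cut to release one, and both raise chaperone and degradation genes through promoter elements. PERK phosphorylates eIF2alpha, as do other kinases that sense amino acid shortage, double-stranded RNA or haem shortage, and this favours translation of ATF4, which raises amino acid and redox genes. Hepatocytes and activated macrophages both secrete large amounts of protein. Gene counts measure mRNA level only, and they do not separate spliced from unspliced Xbp1, nor show cleavage of ATF6 or phosphorylation.

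Poly(A) RNA of C57BL/6 mice was sequenced in 12 libraries, 3 in each of 4 groups. The liver groups were untreated liver, which the titles call WT, and liver 2 h after lipopolysaccharide (LPS), a bacterial cell wall component that activates macrophages. The macrophage groups were peritoneal macrophages exposed for 72 h to a lentivirus with a short hairpin RNA and then to LPS for 2 h, so the controls carried both the virus and the LPS. The hairpin was a control (shNC) or was directed at the long non-coding RNA Gm26917 (shGm26917). The labels name 1 control and 1 targeting hairpin, and they do not say whether the 3 libraries of a group came from separate animals or cultures, so p-values measure the spread between these libraries, which may be technical.

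Libraries held 17300000 to 20900000 counts in liver and 15600000 to 18100000 in macrophages. Knockdown could not be checked, because the macrophage level of Gm26917 was not analysed here. Some libraries stood apart from their group. Untreated liver replicate 3 differed from its group in clock and lipid synthesis genes, with Per3 at 45.5 CPM (a count scaled to a common library size) against 0.774 and 0.788. LPS liver replicate 1 had 9.65% mitochondrial counts, against 6.21% and 6.24%. Control-hairpin replicate 2 differed from the others of its group, with the interferon-induced kinase gene Eif2ak2 at 327 CPM against 87.0 and 172. Liver libraries held hepatocyte markers at a summed level of 73815 to 130712 CPM, and macrophage libraries held macrophage markers at 13578 to 27789 CPM.

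Promoter sequence was taken from RefSeq on GRCm38.p6 as windows from 250 bases before to 50 bases after the annotated gene start, and 31 of the 35 genes had a window. Manf, Hyou1, Atf6 and Derl1 had none and were not searched. Known elements were searched on both strands. They were the ER stress response element ERSE (CCAAT, then 9 bases of any kind, then CCACG), ERSE-II (ATTGG, 1 base of any kind and CCACG), the unfolded protein response element UPRE (TGACGTGG) and the C/EBP-ATF response element CARE (TGATGNAA). No match of one motif overlapped that of another. ERSE was in the window of 9 of the 31 genes, against 0.137% of 27025 genes with a window. CARE was in the window of 5 of the 31, against 4.51% of genes. ERSE-II was in 2 of the 31, against 0.0444% of genes, and UPRE was in 0 of the 31, against 0.714%. A match describes these letters and is not evidence that a factor binds. The genes and the motifs were both chosen from what is known of these pathways. Shares above those of all genes, and their spread over the gene groups, are therefore no independent result.

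The matches were spread unevenly over the gene groups. ERSE was found in 7 of 13 chaperones with a window, in 2 of 6 degradation genes, in 0 of 9 genes of the ATF4 arm and in 0 of 3 sensor genes. CARE was found in 4 of 9 genes of the ATF4 arm and in Herpud1, which also held ERSE-II. The ERSE matches are printed here in the direction of the motif, with its fixed letters in capitals, because they are the sequence that 9 of these genes shared.
Hspa5: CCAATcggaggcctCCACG
Hsp90b1 (far match): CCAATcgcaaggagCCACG
Hsp90b1 (near match): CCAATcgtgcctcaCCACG
Calr: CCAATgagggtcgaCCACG
Canx: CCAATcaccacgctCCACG
Pdia6: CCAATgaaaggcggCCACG
Dnajc3: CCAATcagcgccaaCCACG
Creld2: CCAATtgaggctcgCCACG
Syvn1: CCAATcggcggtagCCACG
Derl3: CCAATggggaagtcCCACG
The matches of the other motifs are printed in the same way.
Herpud1 (ERSE-II): ATTGGgCCACG
Dnajb11 (ERSE-II): ATTGGcCCACG
Asns (CARE): TGATGaAA
Chac1 (CARE): TGATGcAA
Nupr1 (CARE): TGATGcAA
Herpud1 (CARE): TGATGcAA
Trib3 (CARE): TGATGtAA

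**Figure D1:**
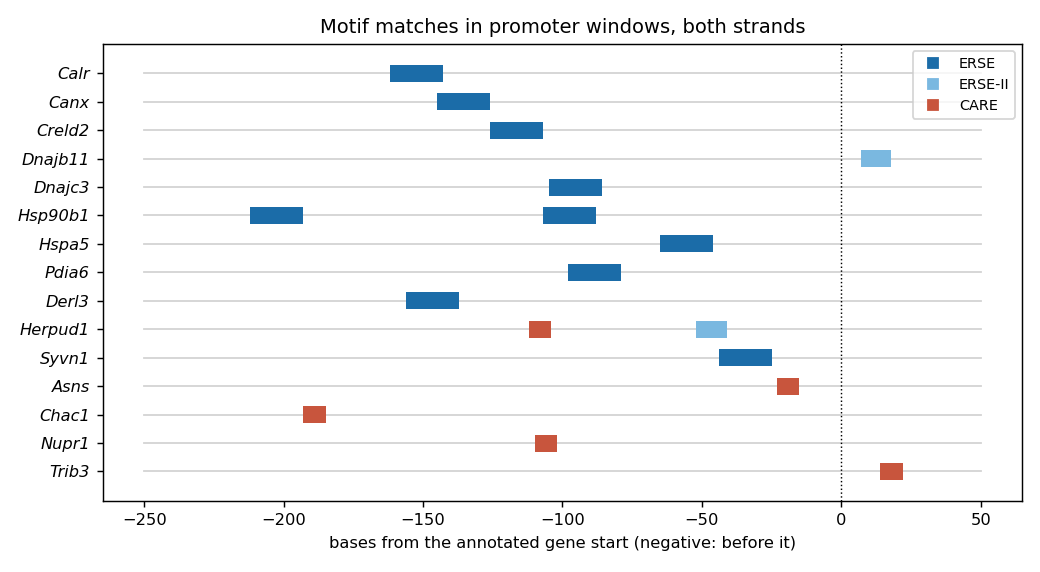
Position of motif matches in the promoter windows of the 15 genes with a match; the x axis is the distance in bases from the annotated start and each bar spans 1 match. The ERSE bars all lie before the start, while the Dnajb11 ERSE-II match and the Trib3 CARE match lie after it.

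The last 150 bases before the annotated start are shown for 5 genes that changed in the comparisons below, with the motif in capitals as it reads on the gene's strand. They are Hspa5 (chr2:34771940-34772089, plus strand), Creld2 (chr15:88819496-88819645, plus strand), Syvn1 (chr19:6046426-6046575, plus strand), Asns (chr6:7693210-7693359, minus strand) and Nupr1 (chr7:126625471-126625620, minus strand). The first 3 hold ERSE and the others hold CARE.
Hspa5: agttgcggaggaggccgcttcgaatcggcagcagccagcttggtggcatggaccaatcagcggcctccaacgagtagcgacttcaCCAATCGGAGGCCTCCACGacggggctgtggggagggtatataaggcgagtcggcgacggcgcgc
Creld2: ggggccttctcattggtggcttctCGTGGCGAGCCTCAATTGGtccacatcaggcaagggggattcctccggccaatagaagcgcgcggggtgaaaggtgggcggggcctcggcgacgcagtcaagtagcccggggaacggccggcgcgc
Syvn1: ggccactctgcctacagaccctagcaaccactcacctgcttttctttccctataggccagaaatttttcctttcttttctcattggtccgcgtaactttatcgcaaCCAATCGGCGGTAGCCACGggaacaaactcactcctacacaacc
Asns: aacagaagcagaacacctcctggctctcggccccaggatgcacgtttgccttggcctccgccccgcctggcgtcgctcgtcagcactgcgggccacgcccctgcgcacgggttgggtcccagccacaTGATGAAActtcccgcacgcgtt
Nupr1: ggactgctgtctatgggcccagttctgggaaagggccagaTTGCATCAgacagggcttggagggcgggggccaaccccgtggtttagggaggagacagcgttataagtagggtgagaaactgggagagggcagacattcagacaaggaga

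The liver comparison asked how these genes differed between liver 2 h after LPS and untreated liver. Of the ER chaperones 7 of 15 rose and 0 fell, where 23.3% of all genes tested were higher and 22.1% lower. In the ATF4 arm 5 of 9 were higher, among them Nupr1 (8.78-fold) and Ppp1r15a (4.91-fold), while Trib3 (3.75-fold) and Sesn2 (10.3-fold) were lower. Of the sensor genes Xbp1 was 4.92-fold higher while Ern1 and Eif2ak3 were lower. The degradation genes were split, with Syvn1 8.90-fold higher and the other 6 not passing the test.

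Changes were called by the quasi-likelihood test of edgeR, with p-values adjusted by Benjamini-Hochberg over the whole table and a threshold of 0.05. In liver 14 of the 35 genes were higher and 4 lower. Among all 13869 genes tested 45.3% changed. DESeq2 also gave 14 and 4, and 0 lower for the chaperones and the degradation genes, as did an unadjusted p under 0.05 in edgeR. The share of these genes that rose was thus 40%, and the share that fell 11.4%. The median log2 fold change, LPS minus untreated, was 1.01 for the chaperones, 1.35 for the ATF4 arm, 0.02 for the degradation genes and -0.56 for the sensor genes, against -0.06 over all genes tested. These medians describe the lists and carry no test. The LPS and untreated libraries did not overlap for 17 of the 35 genes, 13 with higher and 4 with lower values after LPS, against 57.8% of all genes tested (29.4% higher and 28.4% lower).

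**Figure D2:**
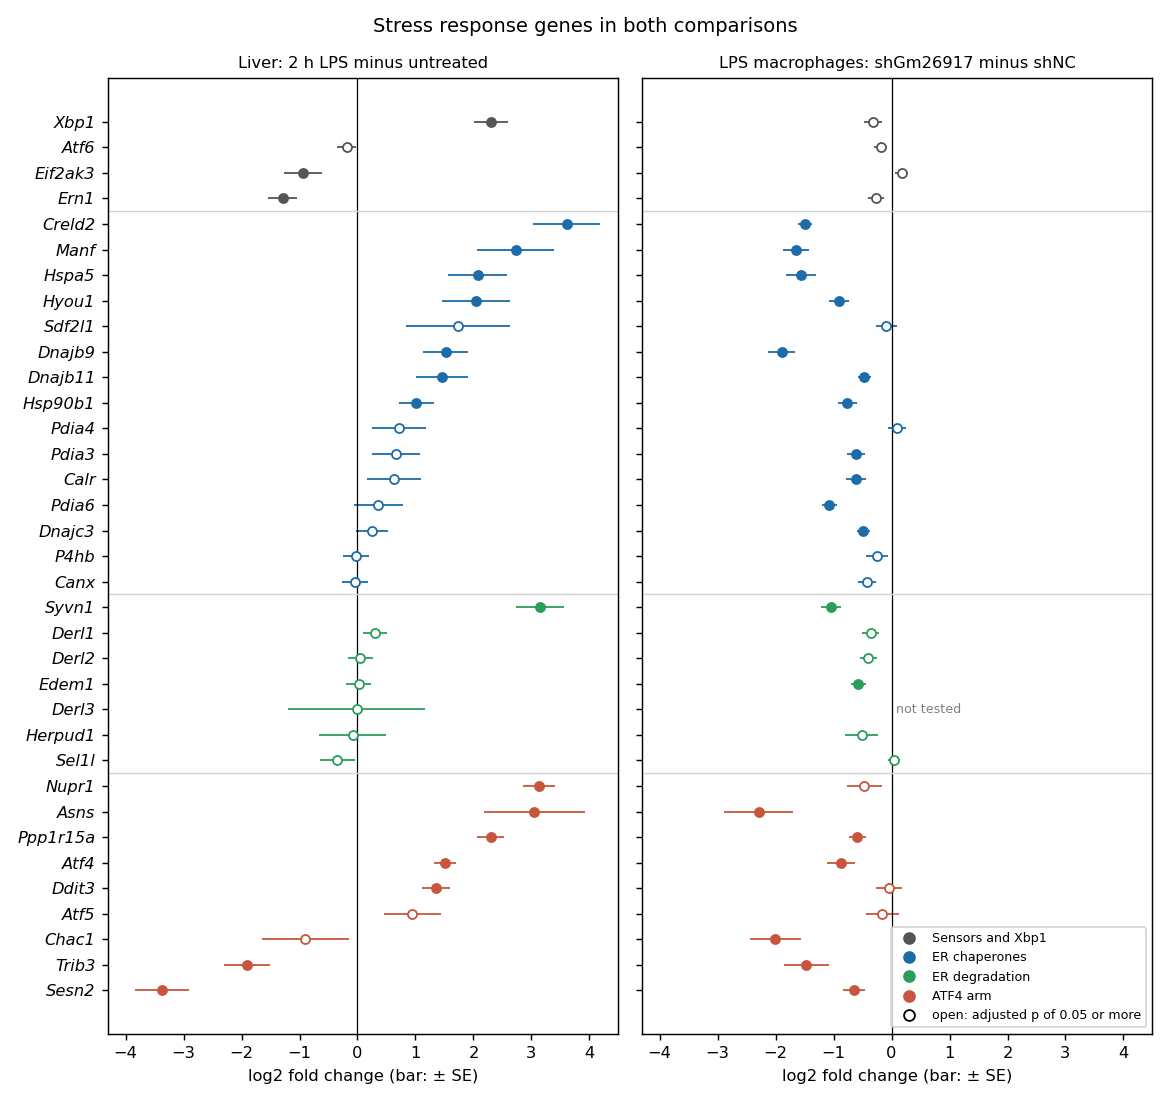
Log2 fold change (x axis, with bars of ± SE) of each gene in liver (left, LPS minus untreated) and in LPS macrophages (right, shGm26917 minus shNC), in 3 against 3 libraries; filled points passed an adjusted p of 0.05 in edgeR. In liver 14 points are filled to the right of 0 and 4 to the left, and in macrophages all 19 filled points lie to the left.

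Xbp1 (GRCm38 chr11:5520659-5525893, plus strand) encodes the transcription factor that IRE1 activates. Its level was 84.0, 140 and 159 CPM in untreated liver and 516, 671 and 696 CPM after LPS. Every LPS library was above every untreated one, and the log2 fold change was 2.30 (SE 0.29, adjusted p = 0.000411, edgeR).

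Ern1, which encodes IRE1 itself, went the other way. It measured 46.5, 37.2 and 29.5 CPM in untreated liver and 12.2, 13.8 and 20.4 CPM after LPS, with a log2 fold change of -1.29 (SE 0.25, adjusted p = 0.00377, edgeR). Eif2ak3, the PERK gene, measured 12.2, 10.7 and 8.81 CPM against 3.26, 8.27 and 5.0 CPM (log2 fold change -0.94, SE 0.33, adjusted p = 0.0451). The groups of both genes did not overlap. The Eif2ak3 call did not hold when untreated replicate 1 (-0.83) or 2 (-0.95) was left out, nor without LPS replicate 1 (-0.65) or 3 (-0.86), with adjusted p of up to 0.132. Atf6, the third sensor, measured 51.9, 52.3 and 61.3 CPM against 44.5, 48.9 and 52.1 CPM, and these ranges overlapped (log2 fold change -0.19, SE 0.16, adjusted p = 0.38). With library totals in place of scaled sizes Atf6 was called lower, at -0.62 (adjusted p = 0.0150). Within liver, then, the mRNA of the splicing enzyme fell while that of its substrate rose.

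Hspa5 encodes BiP, the main Hsp70 chaperone of the ER lumen, which also holds the sensors inactive. It measured 316, 687 and 231 CPM in untreated liver and 912, 2672 and 1608 CPM after LPS. All LPS values lay above all untreated ones, by a log2 fold change of 2.07 (SE 0.51, adjusted p = 0.0106, edgeR). Hyou1, an Hsp70-related factor that exchanges the nucleotide of BiP, measured 38.7, 104 and 30.4 CPM against 92.5, 388 and 233 CPM. Untreated replicate 2 reached into the LPS range, and the log2 fold change was 2.04 (SE 0.59, adjusted p = 0.0213). It was 2.76 without untreated replicate 2, and the gene no longer passed when untreated replicate 1 (1.82, adjusted p = 0.0721) or LPS replicate 2 (1.50, adjusted p = 0.0700) was left out. The J-domain partners of BiP moved unequally. Dnajb9, which encodes ERdj4, measured 27.9, 39.0 and 59.2 CPM against 65.1, 170 and 126 CPM, with no overlap (log2 fold change 1.52, SE 0.38, adjusted p = 0.012). Dnajb11, which encodes ERdj3, measured 35.1, 82.5 and 31.7 CPM against 71.0, 195 and 143 CPM, with overlap (1.45, SE 0.45, adjusted p = 0.0288). That call was lost without untreated replicate 1 (1.25) or 3 (1.22), or LPS replicate 2 (1.11) or 3 (1.43), with adjusted p of up to 0.0948, and with library totals (1.06, adjusted p = 0.0625). Dnajc3, a further BiP co-chaperone, did not pass the test (0.25, adjusted p = 0.493).

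The largest chaperone changes were those of Creld2 and Manf, whose products are secreted under ER stress. Creld2 measured 13.7, 29.0 and 15.1 CPM in untreated liver and 82.6, 415 and 208 CPM after LPS, a mean of 19.3 ± 8.48 against 235 ± 168 CPM (SD, n = 3 each). The log2 fold change was 3.61 (SE 0.58, adjusted p = 0.00143, edgeR), and 2.92 without LPS replicate 2. Manf measured 18.5, 81.1 and 18.9 CPM against 121, 416 and 249 CPM (log2 fold change 2.73, SE 0.66, adjusted p = 0.0103), and 3.79 without untreated replicate 2. In both genes the lowest LPS library exceeded the highest untreated one. Sdf2l1, a partner of the ERdj3 chaperone complex, measured 2.64, 26.8 and 6.04 CPM against 8.28, 73.0 and 36.4 CPM, and its groups overlapped (1.73, SE 0.89, adjusted p = 0.143). It was called higher without untreated replicate 2 (3.15, adjusted p = 0.0267), with no filter on low counts (adjusted p = 0.0203) and with the replicate number as a block (adjusted p = 0.00198).

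Hsp90b1, the ER form of Hsp90, measured 388, 548 and 382 CPM in untreated liver and 618, 1207 and 830 CPM after LPS, with no overlap (log2 fold change 1.01, SE 0.30, adjusted p = 0.0246, edgeR). The call was lost with library totals (0.59, adjusted p = 0.101), and without untreated replicate 1 (0.92), LPS replicate 2 (0.73) or LPS replicate 3 (1.07). Hsp90b1 shares 15.7% of its exon bases with other annotated genes. The protein disulfide isomerases, which form and rearrange disulfide bonds, did not pass the test. Their log2 fold changes were 0.67 for Pdia3, 0.72 for Pdia4, 0.36 for Pdia6 and -0.03 for P4hb. The lectin chaperones of the calnexin cycle, which hold glycoproteins during folding, did not pass either, at 0.62 for Calr and -0.04 for Canx. Without untreated replicate 2, Pdia3 (1.14, adjusted p = 0.0441) and Calr (1.29, adjusted p = 0.0292) were called higher. Chaperones with an ERSE match were on both sides, since Hspa5, Hsp90b1 and Creld2 rose and Calr, Canx, Pdia6 and Dnajc3 did not pass. Of the degradation genes with a match, Syvn1 rose and Derl3 did not pass.

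The chaperones varied together between livers of 1 group. Untreated replicate 2 was the highest of its group for 13 of 15 chaperones, and among the LPS livers replicate 2 was the highest for 13 of 15 and replicate 1 the lowest for 15 of 15. Over all 35 genes these counts were 18, 22 and 27. Such counts were not taken over all genes tested, so the order of the libraries may not be particular to these genes. Their mean log2 CPM, minus the untreated mean, was -0.47, 0.73 and -0.26 in the untreated livers and 0.46, 1.89 and 1.42 after LPS. So the lowest LPS library lay below the highest untreated one, and the groups overlapped. LPS replicate 1, the low library, was also the one with the higher mitochondrial share, and the part of that difference in the result was not tested. Without it, 7 chaperones were higher and their median was 1.23. Without untreated replicate 3 the count was 6 and the median 0.92, without untreated replicate 1 or LPS replicate 2 the count was 4, and without untreated replicate 2 it was 10. Without LPS replicate 3 it was 5. Over all genes tested, 3227 were higher with every library kept. That number was 2868, 2856 and 3237 without untreated replicates 1, 2 and 3. Without LPS replicates 1, 2 and 3 it was 2787, 2678 and 2651. Over all 35 genes the highest library of a group exceeded the lowest by a median of 2.12-fold in untreated liver and 2.21-fold after LPS.

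**Figure D3:**
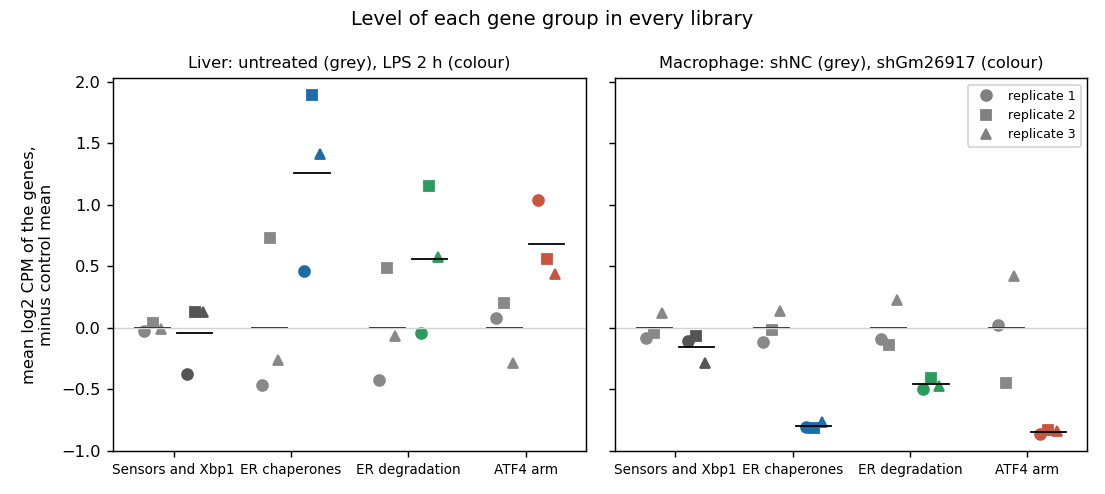
Mean log2 CPM of the genes of each group in every library, minus the mean of the control libraries; the x axis gives the gene groups, marker shapes the replicate numbers, grey the controls and horizontal lines the group means. The liver chaperones run from -0.47 to 0.73 untreated and from 0.46 to 1.89 after LPS, and in macrophages the shGm26917 libraries sit together at -0.82 to -0.77.

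Among the degradation genes, Syvn1 encodes HRD1, the ubiquitin ligase that marks ER proteins for the proteasome. It measured 36.4, 54.4 and 24.7 CPM in untreated liver and 247, 532 and 250 CPM after LPS. The groups lay far apart, with a log2 fold change of 3.15 (SE 0.41, adjusted p = 0.00048, edgeR). The genes of its partners did not pass the test. Sel1l, the membrane adaptor that holds HRD1, stood at a log2 fold change of -0.35 (adjusted p = 0.38). Herpud1, a membrane component of the same complex, measured 68.4, 125 and 312 CPM against 74.4, 256 and 147 CPM (adjusted p = 0.917), and untreated replicate 3 was the highest of all 6 livers. Its log2 fold change was -0.08, and 0.72 without that library. Edem1, a lectin that delivers misfolded glycoproteins, was at 0.02, and the Derlin channel genes were at 0.30 for Derl1 and 0.05 for Derl2. Derl3 was low, with 0.182, 3.89 and 0.0868 CPM against 0.251, 2.61 and 1.20 CPM (log2 fold change -0.01, SE 1.19, adjusted p = 0.994). Without untreated replicate 2 it was 3.27 (adjusted p = 0.0422). Among the LPS livers the order of the libraries was the one seen for chaperones, with replicate 2 highest and replicate 1 lowest for 7 of 7 degradation genes.

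**Figure D4:**
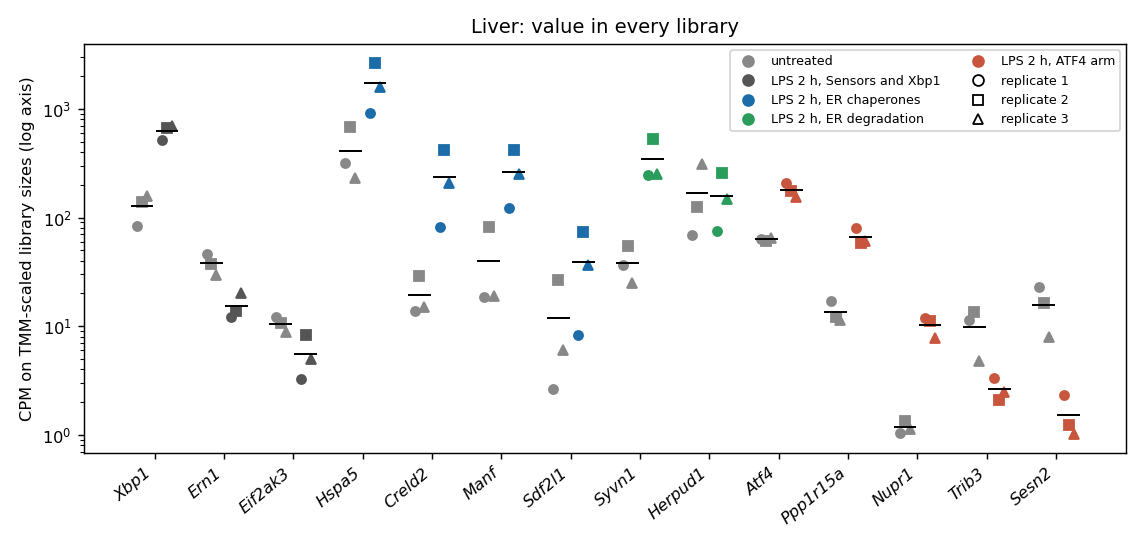
CPM in each of the 6 liver libraries on a log axis for 14 of the 35 genes, grey for untreated and coloured for LPS, with marker shapes for the replicate numbers and lines for the means. Hspa5, Creld2, Manf and Sdf2l1 are highest in replicate 2 of each group, while the 3 libraries of Atf4 untreated lie within 60.2 to 65.1 CPM.

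Atf4, the transcription factor of its arm, measured 63.0, 60.2 and 65.1 CPM in untreated liver and 207, 174 and 153 CPM after LPS. The spread within each group was small against the difference, and the log2 fold change was 1.51 (SE 0.19, adjusted p = 0.000405, edgeR). Ddit3, which encodes the stress factor CHOP, measured 4.28, 4.68 and 4.82 CPM against 13.1, 13.8 and 8.35 CPM (1.35, SE 0.24, adjusted p = 0.00244). Ddit3 shares 10.9% of its exon bases with other annotated genes, Manf 9.25% and Eif2ak3 8.05%, and no source used here says whether counting used strand. Atf5, a related factor, measured 713, 717 and 159 CPM against 1200, 890 and 975 CPM, and it did not pass the test although its groups did not overlap (0.95, SE 0.50, adjusted p = 0.149). The low value was untreated replicate 3, without which the log2 fold change was 0.52 (adjusted p = 0.115).

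Ppp1r15a encodes GADD34, which brings a phosphatase to eIF2alpha and restores translation. It measured 17.2, 12.2 and 11.3 CPM in untreated liver and 80.8, 58.1 and 60.9 CPM after LPS (log2 fold change 2.30, SE 0.23, adjusted p = 0.00011, edgeR). Nupr1, a small stress-induced nuclear protein gene, measured 1.05, 1.34 and 1.13 CPM against 11.9, 11.3 and 7.85 CPM (3.13, SE 0.27, adjusted p = 5.11e-05). Both rose in every LPS library. Asns, asparagine synthetase, measured 0.683, 0.556 and 0.217 CPM against 9.53, 1.61 and 1.01 CPM (3.05, SE 0.87, adjusted p = 0.0204). LPS replicate 1 set that value, since without it the log2 fold change was 1.45 (adjusted p = 0.0760). Leaving out untreated replicate 2 also ended the call (3.12, adjusted p = 0.0581).

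Other genes of the arm fell. Sesn2, sestrin 2, a stress-induced inhibitor of mTORC1 signalling, measured 23.0, 16.2 and 7.99 CPM in untreated liver and 2.32, 1.22 and 1.01 CPM after LPS (log2 fold change -3.37, SE 0.46, adjusted p = 0.000607, edgeR). Trib3, a pseudokinase that CHOP and ATF4 induce, measured 11.5, 13.4 and 4.78 CPM against 3.32, 2.11 and 2.47 CPM (-1.91, SE 0.40, adjusted p = 0.00507). Neither pair of groups overlapped. Chac1, an enzyme that breaks down glutathione, measured 0.728, 2.60 and 7.73 CPM against 0.940, 1.83 and 3.16 CPM, and it did not pass the test (-0.90, SE 0.75, adjusted p = 0.358). Without untreated replicate 3, the highest library, its log2 fold change was 0.25 (adjusted p = 0.769). In the LPS group replicate 1, which had the higher mitochondrial share, was the highest library for 7 of the 9 genes of the arm, unlike for the chaperones, and the part of that difference in the result was not tested. The mean log2 CPM of the arm, minus the untreated mean, was 0.08, 0.20 and -0.28 in untreated livers and 1.04, 0.56 and 0.44 after LPS. Without LPS replicate 1, 4 genes of the arm were higher and 2 lower. Of the 4 genes of this arm with a CARE match, Nupr1 and Asns rose, Trib3 fell and Chac1 did not pass.

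Wider lists of the same pathways were read in the same fit. Of 20 cytosolic aminoacyl-tRNA synthetase genes, which charge tRNAs and include ATF4 targets, 12 were higher and 0 lower, with a median of 0.59. DESeq2 and an unadjusted p under 0.05 also gave 0 lower. Of 26 further ATF4 targets tested, 10 were higher and 3 lower. Of 14 eIF2 kinases and initiation factors, 4 were higher and 2 lower, and of 8 genes for other membrane-bound factors, among them ATF6 relatives and the proteases that cut them, 3 were higher and 2 lower. Of 25 further ER folding genes 3 were higher and 3 lower, or 12% each way against 23.3% and 22.1% of all genes, and of 24 further degradation genes 5 were higher and 4 lower.

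Among genes of these lists that passed the test and whose groups did not overlap, the largest rises were led by Atf3, a stress-induced transcription factor, at 1.31 ± 0.690 CPM in untreated liver and 177 ± 26.7 CPM after LPS (SD, n = 3 each; log2 fold change 7.07, adjusted p = 6.52e-06, edgeR). The next were Slc7a11, the cystine transporter subunit (4.25), Creb3l1, an ATF6-related membrane-bound factor (3.71), Eif2ak2, the kinase PKR that binds double-stranded RNA (3.59), and Jdp2, the Jun dimerization protein gene (2.44). Under the same limits the largest falls were those of Txnip, a regulator of glucose uptake (-2.91), Cdnf, a relative of Manf (-2.19, and -3.17 without LPS replicate 1), Vldlr, a lipoprotein receptor (-1.25), Fkbp14, an ER prolyl isomerase (-1.15), and Eif2ak1, the haem-regulated eIF2 kinase (-0.93). The eIF2 kinase genes thus differed in direction, with Eif2ak2 at 16.3 ± 5.78 against 197 ± 5.92 CPM and Eif2ak1 at 42.2 ± 0.810 against 22.1 ± 6.50 CPM. The values of Cdnf and Slc7a11 rested on few reads. Cdnf had 38, 25 and 12 counts in untreated liver and 8, 1 and 3 after LPS. Slc7a11 had 5, 6 and 2 counts against 63, 66 and 62.

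Some markers of other cells moved with the LPS group. Neutrophil markers summed to 3.37 to 8.81 CPM in untreated liver and 225 to 316 CPM after LPS, with 8 of 9 tested higher, and macrophage markers to 175 to 199 against 524 to 791 CPM, with 6 of 12 higher. Cd14 and Prg4 made up most of that rise, and the other 10 macrophage markers summed to 139 to 165 against 139 to 214 CPM. Of these 10, Itgam (log2 fold change 2.08), Gata6 (1.97), Lyve1 (1.97) and Fcgr1 (1.46) were called higher. Adgre1 (-0.51), Csf1r (-0.87), Mertk (-0.77), Cd68 (0.45), Icam2 (0.46) and Lyz2 (0.06) did not pass the test. Hepatocyte markers summed to 88410 to 130712 against 73815 to 111011 CPM, with 1 of 10 higher and 1 lower. Kupffer cell (222 to 268 against 102 to 293 CPM), B and plasma cell (16.2 to 21.8 against 13.9 to 24.6 CPM), T and NK cell (3.82 to 8.02 against 8.38 to 14.7 CPM), endothelial (126 to 189 against 130 to 154 CPM) and stellate cell markers (250 to 305 against 186 to 307 CPM) were also present, and no marker was at 0 in all liver libraries. Of these, T and NK cell markers had 3 of 10 higher (30%), against 23.3% of all genes tested. In the Kupffer cell list of 7 genes, Marco rose (2.54) and Cd163 fell (-1.89). From the B and plasma cell list 9 genes were tested, with Jchain called up (1.28) and Cd79b called down (-2.03). The stellate cell list had 1 fall and 0 rises among 9 genes. Endothelial markers had 2 of 8 higher, Cdh5 (1.03) and Stab2 (0.73), and 4 lower, Kdr (-2.89), Egfl7 (-2.32), Tek (-1.64) and Clec4g (-1.13). The part of these cells in the results was not tested, and in bulk tissue a change in the number of cells of a type and a change in RNA per cell cannot be told apart.

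The macrophage comparison asked how the hairpin against Gm26917 changed the same genes in cells that had all received LPS. Every change that passed the test was a fall. The chaperones had 11 of 15 lower, where 11.1% of all genes tested were lower and 12.6% higher, the ATF4 arm 6 of 9 and the degradation genes 2 of 6 tested, while the 4 sensor genes did not pass. The largest falls were those of Asns (4.91-fold), Chac1 (4.01-fold) and Dnajb9 (3.72-fold), and Hspa5 was 2.95-fold lower.

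In edgeR's quasi-likelihood test 19 of the 34 genes tested were lower and 0 higher. Among all 12876 genes tested in macrophages 23.7% changed, while 55.9% of the stress response genes were lower. Hairpin groups did not overlap for 24 of the 34 genes, all lower with shGm26917, against 45.9% of all genes tested (24.2% higher and 21.7% lower). An unadjusted p under 0.05 gave 22 lower and 0 higher, and DESeq2 gave 20 and 0. The median log2 fold change, shGm26917 minus shNC, was -0.61 for the chaperones, -0.65 for the ATF4 arm, -0.46 for the degradation genes and -0.23 for the sensor genes, against -0.00073 over all genes tested. Derl3 was not tested, with 9, 30 and 6 counts in the control libraries and 6, 6 and 10 in the others.

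The number of calls depended on single libraries and on scaling. Without control replicate 2, the library that stood apart, 24 genes were lower and 0 higher and 5236 genes changed in all against 3049 with it, with medians of -0.53 for the chaperones, -0.83 for the ATF4 arm and -0.51 for the degradation genes. The count lower was 11 without control replicate 1, 7 without control replicate 3, and 6, 5 and 5 without shGm26917 replicates 1, 2 and 3. The count over all genes changed was 2129, 1679, 1341, 839 and 978 in these fits, in the same order. With library totals in place of scaled sizes, 9 were lower and 1, Eif2ak3, was higher (0.46, adjusted p = 0.0358), and the median of all genes shifted to 0.29. With the replicate number as a block 10 were lower, and 8 in a fit of all 12 libraries. The falls of Dnajb9, Pdia6, Creld2, Manf and Syvn1 held whichever library was left out.

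Dnajb9 (ERdj4) measured 123, 116 and 202 CPM with the control hairpin and 40.7, 34.8 and 42.8 CPM with shGm26917. The groups lay well apart, with a log2 fold change of -1.90 (SE 0.24, adjusted p = 0.00499, edgeR). Manf measured 306, 247 and 436 CPM against 105, 94.0 and 115 CPM (-1.65, SE 0.23, adjusted p = 0.00614). Creld2 measured 145, 153 and 166 CPM against 50.4, 54.2 and 60.9 CPM (-1.49, SE 0.12, adjusted p = 0.00233). All 3 mRNAs were lower in every shGm26917 library than in any control library. Hspa5 (BiP) measured 1871, 1434 and 2751 CPM against 654, 682 and 715 CPM (-1.56, SE 0.26, adjusted p = 0.00979), and its adjusted p rose to at most 0.0544 on leaving out a library, with the call lost without shGm26917 replicate 2 or 3.

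Pdia6, a disulfide isomerase that also binds IRE1, measured 602, 671 and 721 CPM with the control hairpin and 308, 318 and 322 CPM with shGm26917 (log2 fold change -1.07, SE 0.13, adjusted p = 0.00487, edgeR). Hyou1 measured 339, 270 and 410 CPM against 180, 184 and 178 CPM (-0.91, SE 0.17, adjusted p = 0.0141). Hsp90b1 measured 1178, 1077 and 1453 CPM against 714, 710 and 761 CPM (-0.76, SE 0.17, adjusted p = 0.0217). None of the groups of these genes overlapped. Smaller falls passed the test for Pdia3 (-0.61), Calr (-0.61), Dnajc3 (-0.49) and Dnajb11 (-0.47). The chaperones that did not pass were Canx (-0.42, adjusted p = 0.0821), P4hb (-0.25), Sdf2l1 (-0.09) and Pdia4 (0.09). So within the disulfide isomerases Pdia6 fell while Pdia4 measured 255, 339 and 263 CPM against 325, 307 and 278 CPM.

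**Figure D5:**
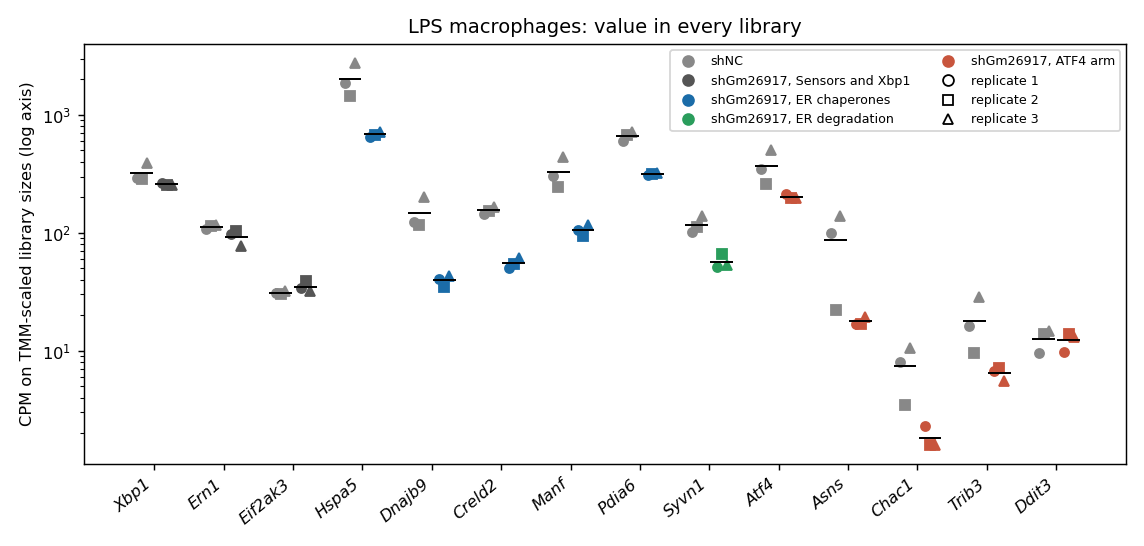
CPM in each of the 6 macrophage libraries on a log axis for 14 of the 35 genes, grey for the control hairpin and coloured for shGm26917, with marker shapes for the replicate numbers and lines for the means. Asns in control replicate 2 (22.0 CPM) lies near the shGm26917 libraries (16.8 to 19.4 CPM), while Creld2 and Pdia6 show tight groups apart from each other.

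The sensor genes showed small differences. Xbp1 measured 291, 283 and 390 CPM with the control hairpin and 263, 254 and 254 CPM with shGm26917, without overlap, and did not pass the test (log2 fold change -0.32, SE 0.16, adjusted p = 0.182, edgeR). Ern1 measured 107, 114 and 116 CPM against 96.9, 104 and 77.1 CPM (-0.28, SE 0.14, adjusted p = 0.192). The Atf6 groups overlapped, at 80.4, 88.1 and 93.5 CPM against 83.3, 76.5 and 70.5 CPM (-0.19, SE 0.12, adjusted p = 0.282). Eif2ak3 measured 30.5, 30.3 and 32.1 CPM against 33.7, 39.3 and 31.8 CPM (0.17, SE 0.12, adjusted p = 0.331). No sensor gene passed an unadjusted p under 0.05, and DESeq2 called 0.

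In the ATF4 arm, Atf4 measured 347, 260 and 499 CPM with the control hairpin and 213, 195 and 195 CPM with shGm26917 (log2 fold change -0.87, SE 0.24, adjusted p = 0.0415, edgeR). Its control libraries were spread while the others lay close together. Asns measured 99.6, 22.0 and 138 CPM against 16.8, 16.8 and 19.4 CPM (-2.29, SE 0.60, adjusted p = 0.0357). Control replicate 2 stood near the shGm26917 level. Chac1 measured 8.04, 3.45 and 10.5 CPM against 2.29, 1.59 and 1.59 CPM (-2.0, SE 0.44, adjusted p = 0.0213). Trib3 measured 16.1, 9.53 and 28.2 CPM against 6.67, 7.17 and 5.56 CPM (-1.47, SE 0.39, adjusted p = 0.0362). Control replicate 2 was the lowest of its group for 6 of the 9 genes of the arm. Without it the log2 fold changes were -1.09 for Atf4, -2.77 for Asns, -2.36 for Chac1 and -1.79 for Trib3. The mean log2 CPM of the arm, minus the control mean, was 0.02, -0.45 and 0.42 in the control libraries and -0.86, -0.84 and -0.84 with shGm26917.

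Ppp1r15a (GADD34) measured 40.9, 43.9 and 51.3 CPM against 32.9, 25.7 and 31.6 CPM (log2 fold change -0.59, SE 0.15, adjusted p = 0.0298, edgeR). Sesn2 measured 23.4, 15.7 and 22.8 CPM against 12.4, 14.5 and 12.5 CPM (-0.65, SE 0.19, adjusted p = 0.048). The remaining genes of the arm did not pass. Ddit3 (CHOP) measured 9.51, 13.7 and 14.7 CPM against 9.67, 14.0 and 13.1 CPM, nearly the same range in both groups (-0.04, adjusted p = 0.903). Nupr1 measured 75.6, 172 and 94.0 CPM against 75.9, 89.2 and 81.6 CPM (-0.47, adjusted p = 0.29), and without control replicate 2, the high value, it stood at -0.06 (adjusted p = 0.753). Atf5 stood at -0.16 (adjusted p = 0.711), and without control replicate 2 it was called lower (-0.44, adjusted p = 0.0327). The 6 calls of this arm were each lost in at least 1 leave-one-out fit, and 0 of them remained without control replicate 3 or any one of the shGm26917 libraries.

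Of the degradation genes, Syvn1 (HRD1) measured 101, 112 and 139 CPM with the control hairpin and 51.5, 65.8 and 52.8 CPM with shGm26917 (log2 fold change -1.05, SE 0.17, adjusted p = 0.00898, edgeR). Edem1 measured 284, 352 and 335 CPM against 225, 217 and 211 CPM (-0.57, SE 0.13, adjusted p = 0.0245). Both fell in every shGm26917 library. The others did not pass, at -0.52 for Herpud1, -0.40 for Derl2, -0.36 for Derl1 and 0.04 for Sel1l. Without control replicate 2, Herpud1 (-0.78), Derl2 (-0.50) and Derl1 (-0.45) were called lower.

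The shGm26917 libraries were more alike than the controls. Over the 35 genes the highest library exceeded the lowest by a median of 1.17-fold with shGm26917 and 1.38-fold with the control hairpin. This was not particular to these genes. Over the whole table the chi-square per degree of freedom, a measure of difference between libraries, was 27.9 to 38.1 with shGm26917. Between controls it was 192 and 228 in the pairs with replicate 2, and 28.1 between replicates 1 and 3. The mean log2 CPM of the chaperones, minus the control mean, was -0.11, -0.02 and 0.13 in the control libraries and -0.80, -0.82 and -0.77 with shGm26917. Here the groups did not overlap, unlike in liver.

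Wider lists were read beside this, where 11.1% of all genes tested were lower and 12.6% higher. Of 25 further ATF4 targets tested, 11 (44%) were lower and 1 (4%) higher, with a median of -1.26. Of 24 further ER folding genes 9 were lower and 1 higher, and of 24 further degradation genes 5 were lower and 0 higher, with 0 higher also at an unadjusted p under 0.05 and in DESeq2. Of 20 aminoacyl-tRNA synthetase genes 3 (15%) were lower and 2 (10%) higher, close to the shares of all genes. Of 8 membrane-bound factors 2 were lower and 0 higher. Of 14 eIF2 kinases and initiation factors 4 were lower and 0 higher. In each of these last 2 lists 1 gene was higher at an unadjusted p under 0.05 and in DESeq2.

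Under the same limits, a called change and groups that did not overlap, the largest falls were those of Ddit4, a stress-induced inhibitor of mTORC1 (24.7 ± 1.94 CPM with the control hairpin and 4.56 ± 0.981 CPM with shGm26917, SD, n = 3 each; log2 fold change -2.44, adjusted p = 0.00233, edgeR), and Eif2ak2 (-2.37, and -1.80 without control replicate 2). They were followed by Gdf15, a secreted stress cytokine (-2.14), Ndrg1, a stress-induced gene (-1.95, and -1.30 without control replicate 2), and Psat1, an enzyme of serine synthesis (-1.75). Among the genes that rose under these limits were Slc1a5, a neutral amino acid transporter (27.3 ± 5.30 against 108 ± 13.3 CPM; 1.98, adjusted p = 0.00258), Fkbp11, an ER prolyl isomerase (1.97), and the synthetase gene Vars1 (0.98). Slc1a5 and Asns, both counted among ATF4 targets, thus differed in direction.

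Summed levels of cell markers were set side by side in the hairpin groups. Only the neutrophil sum and the fibroblast and stellate sum did not overlap. Macrophage markers summed to 13578 to 22321 CPM with the control hairpin and 19276 to 27789 CPM with shGm26917, with 3 of 11 tested higher and 1 lower. Csf1r (log2 fold change 1.32), Cd68 (0.81) and Lyz2 (1.48) were called higher, and Cd14 (-2.19) was called lower. Kupffer-type markers summed to 346 to 1630 against 776 to 2648 CPM, nearly all of it from Marco (means of 1046 and 1584 CPM). Marco did not pass the test (0.60), while Vsig4 was called higher (2.31, means of 3.41 and 17.0 CPM). B and plasma cell markers summed to 258 to 792 against 160 to 368 CPM with 0 of 11 called (0 at an unadjusted p under 0.05 and in DESeq2), and Tnfrsf17 was at 0 in all 6 libraries. Neutrophil markers summed to 783 to 1243 against 626 to 753 CPM, with Retnlg, Ly6g and Ngp at 0. Most of that sum came from Mmp9 (means of 585 and 188 CPM) and Csf3r (273 and 313 CPM). Mmp8 was called higher (log2 fold change 1.63), while Mmp9 (-1.64) and Camp (-2.39) were called lower. Fibroblast and stellate markers summed to 22.2 to 27.2 against 4.33 to 5.67 CPM, endothelial to 6.14 to 22.4 against 2.72 to 7.59 CPM, T and NK cell to 0.608 to 1.69 against 0.548 to 0.624 CPM, and hepatocyte to 43.4 to 231 against 113 to 220 CPM, nearly all of it from Ass1, with 6 of 10 at 0 and Alb at means of 0.201 and 0.174 CPM. The mitochondrial share was 0.523% to 0.839% with the control hairpin and 0.927% to 0.976% with shGm26917. The part of these differences in the results was not tested.

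The liver and macrophage comparisons share no library, and their values can be set side by side. Of the 14 genes higher in liver after LPS, 11 were lower with shGm26917 in macrophages, which is 78.6% of the first list and 57.9% of the 19 genes lower in macrophages. Among all 11400 genes tested in both, 654 were higher in liver and lower in macrophages, or 23.8% of 2749 and 50.1% of 1306. So the share of macrophage falls that had risen in liver was close to that of all genes. Creld2 stood at 3.61 in liver and -1.49 in macrophages, Syvn1 at 3.15 and -1.05, and Hspa5 at 2.07 and -1.56 (log2 fold changes). Sesn2 and Trib3 were lower in both, at -3.37 and -0.65 and at -1.91 and -1.47. They were 2 of the 4 genes lower in liver (50%), against 141 of 2479 (5.69%) among all genes tested in both. Xbp1, Ddit3 and Nupr1 were higher in liver and did not pass in macrophages, while Pdia3, Pdia6, Calr, Dnajc3, Chac1 and Edem1 were lower in macrophages and did not pass in liver. Whether a gene's response differed between the tissues was not tested.

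Levels of different genes were compared per kilobase of annotated exon. In untreated liver the highest were P4hb at 314 CPM per kb and Atf5 at 266 CPM per kb, followed by Calr at 124, Hsp90b1 at 109 and Hspa5 at 97.2 CPM per kb. Asns, at 0.177 CPM per kb, was the lowest. In control-hairpin macrophages the highest were Calr at 537, Hspa5 at 477 and P4hb at 373 CPM per kb. Beside the fold changes, then, the abundant isomerase P4hb did not pass the test in either comparison, while the abundant chaperone Hspa5 changed in both.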

How the data were processed

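Each library came with 1 deposited table of unnormalized read counts per Ensembl gene ID. STAR, featureCounts 1.6.3 and mm10 appear in the submitters' processing notes. Parameters, strand use, annotation and the treatment of multi-mapping reads were not given in the sources used here, so reads of overlapping or near-identical genes may be shared. Liver and macrophage tables had different gene IDs, and each tissue was fitted alone. The macrophage headers carry the word combined, which no source used here explains.

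Counts were tested in edgeR 4.0.16 (R 4.3.3; filterByExpr, TMM, 2-sided quasi-likelihood F test, group as sole factor), with Benjamini-Hochberg adjustment over all genes of a tissue and calls at an adjusted p under 0.05. The SE of a log2 fold change is its size over the root of F. CPM uses TMM-scaled library sizes. Exon lengths and overlaps are those of GENCODE M21 (GRCm38). The fit was checked on simulated counts. Alternatives were library totals, RLE scaling, other count filters, DESeq2 1.42.0, all 12 libraries in 1 fit, a replicate block and leaving out each library. Genes named outside the set were also refitted without the libraries that stood apart, which was chosen after seeing the data. Genes outside the set were named by size of change (up to 5 per direction, called, groups not overlapping). 1 result that met this rule is not reported here. The genes and lists were chosen with earlier results of these data known.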

Additional observations from a re-analysis of the deposited data

How the results depend on the processing

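In liver 13 of the 18 calls and in macrophages 3 of the 19 (Dnajb9, Creld2 and Syvn1) held under every alternative and every left-out library. With library totals the median of all genes moved to -0.49 in liver and 0.29 in macrophages, and 26.8% of liver calls and 79.8% of macrophage calls were higher, against 51.3% and 53.1%. In liver 5 chaperones were then higher, with a median of 0.59. The other medians were -1.0 for sensor and 0.93 for ATF4 genes in liver, and -0.32 for chaperones, 0.062 for sensor and -0.16 for degradation genes in macrophages, where 9 genes were lower (6 chaperone, 2 ATF4 and 1 degradation) and 1 sensor gene higher. The cause was not tested. Without a filter 7 macrophage chaperones were lower, where more genes were tested. In the fit of all 12 libraries 8 genes were lower, among them 3 chaperones and 1 degradation gene, and the cause was not tested.

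The replicate block gave 10 lower in macrophages (7 chaperone, 2 ATF4 and 1 degradation). Libraries sharing a number did not all deviate together (correlations 0.12, 0.05 and -0.08 in liver, -0.04, 0.24 and 0.18 in macrophages), so the shared numbers were not taken as pairs. In each tissue some libraries correlated best with another number.

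Leaving out each library gave 11 to 17 higher and 3 to 4 lower in liver (chaperones 4 to 10 higher, degradation 1 to 2 higher, ATF4 4 to 5 higher, sensors 1 to 2 lower), with medians of 0.73 to 1.29 for chaperones, -0.70 to -0.38 for sensors, 1.23 to 1.56 for ATF4 and -0.15 to 0.27 for degradation genes, and 4865 to 6227 genes changed. In macrophages it gave 5 to 24 lower (chaperones 4 to 12, ATF4 0 to 7, degradation 1 to 5), with medians of -0.73 to -0.53, -0.83 to -0.60 for ATF4 and -0.57 to -0.31 for degradation genes, and 839 to 5236 genes changed.

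Genes whose log2 fold change turned its sign did not pass the test in the fits of all 6 libraries. With library totals these were, in liver, Dnajc3 (-0.17), Pdia6 (-0.036), Edem1 (-0.40), Derl1 (-0.14) and Derl2 (-0.36), and in macrophages Sdf2l1 (0.20), P4hb (0.044), Ern1 (0.017), Atf6 (0.11), Atf5 (0.13) and Ddit3 (0.26). In liver the block turned Herpud1 (0.025) and Derl3 (0.74), the fit of all 12 libraries Edem1 (-0.061) and Derl2 (-0.030), and RLE scaling Derl3 (0.0079). Leaving out a library gave liver ranges of -0.14 to 0.13 for Edem1, -0.15 to 0.20 for Derl2, -0.19 to 0.10 for Canx, -0.92 to 3.27 for Derl3, -0.14 to 0.038 for P4hb, -1.39 to 0.25 for Chac1 and -0.60 to 0.72 for Herpud1, and macrophage ranges of -0.0044 to 0.22 for Pdia4, -0.012 to 0.081 for Sel1l, -0.21 to 0.10 for Sdf2l1, -0.23 to 0.10 for Ddit3 and -0.44 to 0.041 for Atf5.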
